A study of Mus musculus with 18 samples.

Results

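The ferritin genes and 8 other genes of iron handling were followed across resting and stimulated mouse macrophages with and without *Prep*, the gene of prolyl endopeptidase. The 10 genes were chosen by symbol, as a list of ferritin, iron transport, heme breakdown and iron-binding genes, with earlier results of these data known. All 10 were found among the 16314 gene symbols of the count table, and all 10 were among the 12021 genes with enough counts to be tested. They are the ferritin chains *Ftl1* and *Fth1*, the importers *Tfrc* and *Slc11a2*, the phagosomal transporter *Slc11a1* and the exporter *Slc40a1*. The others are the heme breakdown enzyme *Hmox1*, the biliverdin and flavin reductase *Blvrb*, the siderophore-binding protein *Lcn2* and the ferritin receptor *Ncoa4*.

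Bulk RNA-seq measured mRNA in bone marrow-derived macrophages (BMDMs), grown from marrow cells over 7 days with 50 ng/ml of M-CSF, which drives macrophage differentiation. The mice were of C57BL6/J background and were either heterozygous for *Prep* (*Prep*+/-) or lacked both copies in the whole body (*Prep*-/-). M0 cells had no stimulus, M1 cells had LPS, a component of the bacterial wall, at 50 ng/ml for 24 h, and M2 cells had the cytokines IL-4 and IL-13 at 20 ng/ml each for 24 h. There were 3 biological replicates in each of the 6 groups, and 18 libraries in all. The controls were heterozygous, so no group was wild type, and a global knockout also lacked the gene in the marrow cells from which the macrophages grew.

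Macrophages take up iron from senescent red cells and release it again to the rest of the body, and they also withhold it from microbes. Iron that is not in use is stored inside ferritin, a hollow shell built of heavy chains (*Fth1*) and light chains (*Ftl1*). Transferrin-bound iron enters through the transferrin receptor (*Tfrc*), iron in endosomes and phagosomes passes the membrane through the transporters of *Slc11a2* and *Slc11a1*, and ferroportin (*Slc40a1*) is the known exporter of iron from the cell. Heme oxygenase 1 (*Hmox1*) opens the heme ring and frees its iron, and biliverdin reductase B (*Blvrb*) reduces biliverdin and flavins. Several of these mRNAs carry an iron-responsive element, a short stem with a loop that iron regulatory proteins bind when iron is scarce. In a 5′ UTR such binding holds back translation, and in the 3′ UTR of *Tfrc* it protects the mRNA from decay.

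These elements are shown because they are the sequence feature that links ferritin, ferroportin and the transferrin receptor. The sense strand of each gene's canonical transcript (GENCODE vM39, GRCm39) was searched in both UTRs for a C, 5 bases, the loop CAGTGN with N not G, and 5 bases that pair with the first 5, G with T allowed. Of the 10 genes, 4 held 7 such matches, against 0.519% of 21770 protein-coding genes with a match in either UTR. Each is printed 5′ to 3′ on the transcript's strand, as DNA, with the 6 loop bases in capitals.
*Ftl1*, 5′ UTR, minus strand, chr7:45109205-45109229: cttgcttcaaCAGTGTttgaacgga
*Fth1*, 5′ UTR, plus strand, chr19:9960098-9960122: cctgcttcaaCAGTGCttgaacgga
*Slc40a1*, 5′ UTR, minus strand, chr1:45964627-45964651: acttcagctaCAGTGTtagctaagt
*Tfrc*, 3′ UTR, plus strand, chr16:32450039-32450063: ttatcggaagCAGTGCcttccataa
*Tfrc*, 3′ UTR, plus strand, chr16:32450418-32450442: ttatcgggagCAGTGTcttccataa
*Tfrc*, 3′ UTR, plus strand, chr16:32450483-32450507: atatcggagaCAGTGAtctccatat
*Tfrc*, 3′ UTR, plus strand, chr16:32450530-32450554: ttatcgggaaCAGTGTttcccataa
The ferritin pair shares the stem of its element on both arms, and all 4 matches of *Tfrc* lie within its 3′ UTR, each in 1 exon. A match describes the sequence only, and mRNA counts carry no measure of the translation that a 5′ UTR element controls. The pattern follows elements already known in these mRNAs, so the share of the 10 genes with a match tests nothing. The search also covers only this exact form in the canonical transcript, so elements of another form or transcript are not listed.

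The libraries held 19068237 to 22598279 counts and 13096 to 13807 detected genes, and the common biological coefficient of variation between replicates was 0.167. Levels are given as CPM, a gene's count scaled to the total of its library, after TMM scaling, which evens out differences in library composition. The targeted gene was between 26.0 and 42.5 CPM in the 9 *Prep*+/- libraries and between 1.48 and 3.22 CPM in the 9 *Prep*-/- libraries. *Prep*-/- M0 replicate 3 and *Prep*-/- M2 replicate 3 stood apart from the other replicates of their groups. The 4 pairs that held either one differed by a chi-square of 105 to 114 per degree of freedom, against 9.26 to 46.3 in the other 14 pairs. Several results that use either library are therefore also given without it, but not all are. Summed macrophage markers, *Csf1r*, *Cd68*, *Lyz2* and 5 others, were all detected in every group. Their sum was 19000 to 22400 CPM in *Prep*+/- M0 and 30400 to 48200 CPM in *Prep*-/- M0, 45800 to 47200 and 31000 to 37000 CPM in M1, and 10000 to 12200 and 13900 to 19600 CPM in M2. It thus moved with state and genotype, mostly through *Lyz2*, and its part in the results was not tested. In bulk RNA, fewer cells with a transcript and less of it per cell cannot be told apart.

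A gene was called higher or lower where its adjusted p was under 0.05 and it changed more than 1.5-fold in edgeR's quasi-likelihood test, with Benjamini-Hochberg adjustment over all 12021 genes. Loss of *Prep* moved 4 of the 10 genes in M0, with *Slc40a1* and *Slc11a1* higher and *Tfrc* and *Hmox1* lower, beside 32.6% of all genes called in that comparison (15.4% higher and 17.2% lower). In M1 it moved 3, with *Slc40a1* and *Ncoa4* higher and *Tfrc* lower, beside 22.5% of all genes (12.3% higher and 10.2% lower). In M2 it moved 2, *Slc11a1* and *Slc11a2*, both higher, beside 16.2% of all genes (6.37% higher and 9.82% lower). The share of these genes that was called was thus near the background in each state. Over the 10 genes the median log2 fold change of the knockout in M0, M1 and M2 was 0.48, -0.02 and 0.19, where that of all genes was 0.02, 0.04 and 0.03.

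**Figure D1:**
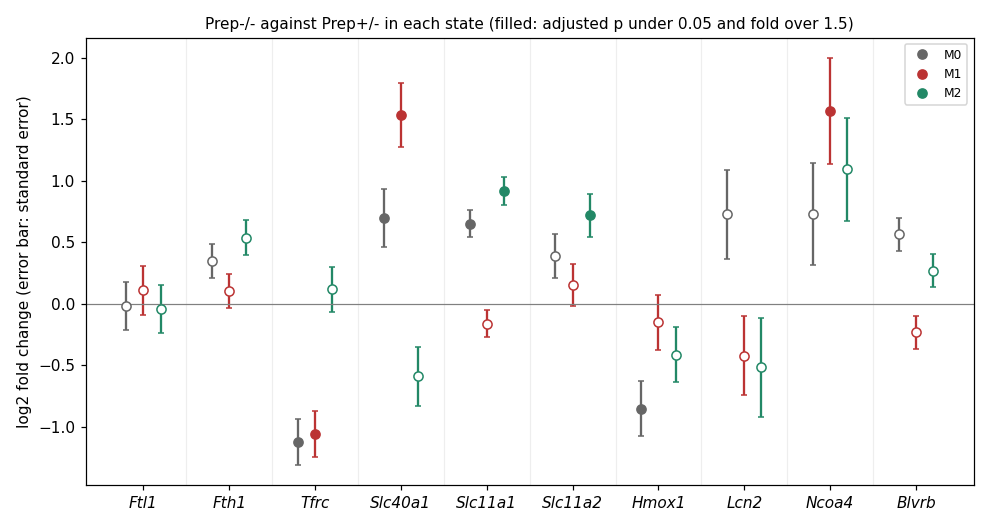
Log2 fold change of *Prep*-/- against *Prep*+/- BMDMs for each of the 10 genes in M0 (grey), M1 (red) and M2 (green), with n = 3 libraries per group, bars of 1 standard error and filled points for calls. *Tfrc* sits at -1.13 in M0 and -1.06 in M1 but at 0.12 in M2, and *Slc40a1* at 0.70 and 1.54 in M0 and M1 but at -0.59 in M2.

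LPS reached most of these genes, and IL-4 and IL-13 reached fewer. Over all genes, too, more were called under LPS than under IL-4 and IL-13. Since the 10 genes were chosen with earlier results known, their shares are described and not tested. LPS raised 6 and lowered 3 of the 10 in *Prep*+/- BMDMs, beside 37.7% of all genes called (16.7% higher and 20.9% lower), and raised 5 and lowered 2 in *Prep*-/- BMDMs, beside 42% of all genes (20.9% higher and 21% lower). IL-4 and IL-13 raised 1 and lowered 2 in *Prep*+/- BMDMs, beside 12.9% of all genes (6.09% higher and 6.77% lower), and raised 2 and lowered 2 in *Prep*-/- BMDMs, beside 30.2% of all genes (14.7% higher and 15.5% lower). Under LPS the 10 genes had a median log2 fold change of 1.29 in controls and 0.49 in knockouts, where all genes had -0.03 and 0.00044. Under IL-4 and IL-13 it was -0.09 and 0.16, against -0.01 and -0.02 over all genes. These comparisons share their M0 libraries with each other and all libraries with the knockout comparisons, so values of different comparisons stand side by side below and are not independent of each other.

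**Figure D2:**
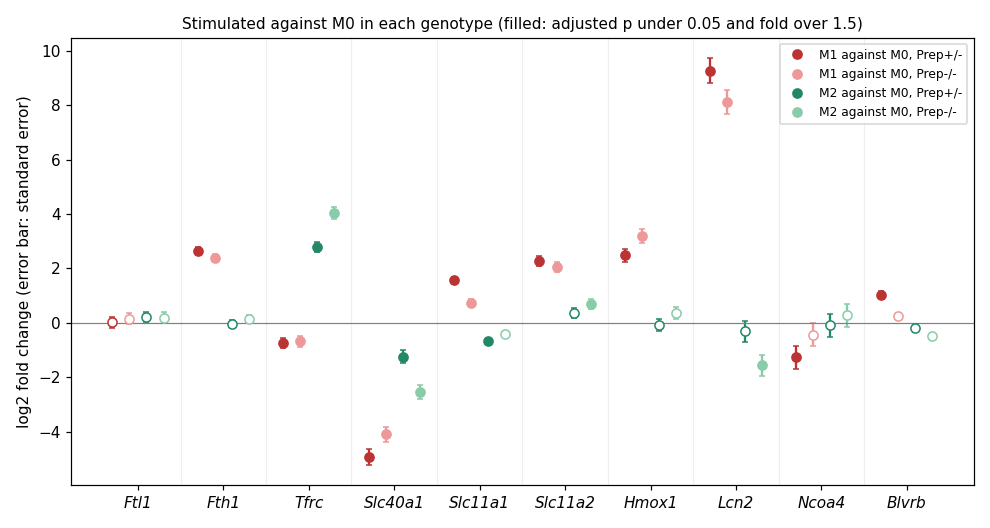
Log2 fold change of M1 against M0 (red) and M2 against M0 (green) for each of the 10 genes, dark for *Prep*+/- and light for *Prep*-/-, with n = 3 libraries per group, bars of 1 standard error and filled points for calls. *Lcn2* rose most under LPS, by 9.26 and 8.11 in the 2 genotypes, *Slc40a1* fell under both stimuli, and *Tfrc* rose only under IL-4 and IL-13.

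Ferritin mRNA made up a large part of every library. *Ftl1* and *Fth1* together took 3.78% ± 0.348 (SD, n = 3) of all counts in *Prep*+/- M0 and 3.66% ± 0.683 in *Prep*-/- M0. LPS brought the pair to 7.38% ± 0.385 and 8.26% ± 0.153 in the *Prep*+/- and *Prep*-/- groups, and in M2 it stood at 3.88% ± 0.206 and 3.87% ± 0.206. *Fth1* was the most abundant mRNA by counts in each of the 6 M1 libraries. *Ftl1* held that rank in each *Prep*+/- M0 and M2 library and in *Prep*-/- M0 replicate 3.

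**Figure D3:**
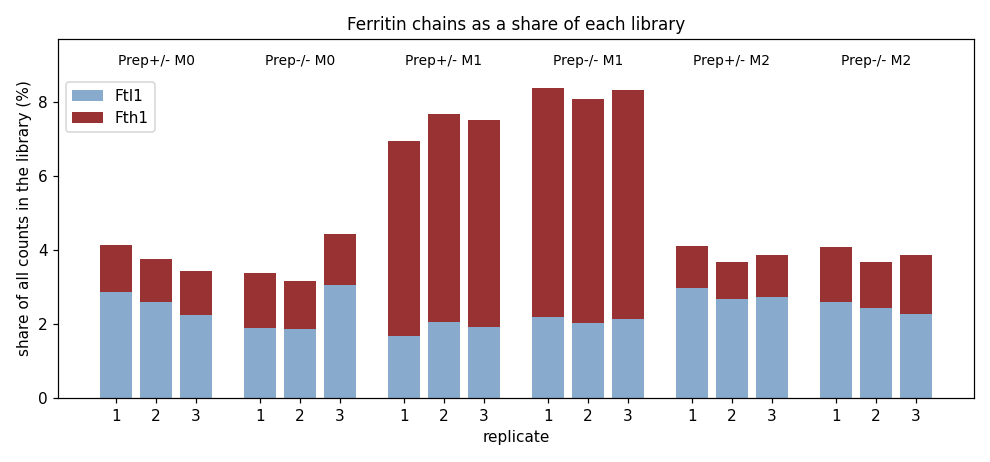
Share of all counts of a library, in percent, taken by *Ftl1* (light blue) and *Fth1* (dark red, stacked above) in each of the 18 libraries. The *Fth1* part grows from 1.22% to 5.49% of all counts on average between *Prep*+/- M0 and M1, where the pair reaches 7.38% in *Prep*+/- and 8.26% in *Prep*-/- on average.

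The rise came from the heavy chain. *Fth1*, on chromosome 19 (9957911 to 9962462, plus strand), was at 11111, 10127 and 9958 CPM in the 3 *Prep*+/- M0 libraries and at 59584, 68650 and 66179 CPM in *Prep*+/- M1. The *Prep*-/- libraries went from 14349, 11484 and 13917 CPM to 72616, 65438 and 70878 CPM. No M1 library overlapped an M0 library. The log2 fold change was 2.64 (SE 0.15, adjusted p = 9.32e-10) in *Prep*+/- and 2.39 (SE 0.148, adjusted p = 2.19e-09) in *Prep*-/-, that is 6.23-fold and 5.26-fold. The light chain *Ftl1*, on chromosome 7 (45107367 to 45109308, minus strand), was at 18812, 25169 and 22785 CPM in *Prep*+/- M1 against 24844, 22081 and 18823 CPM in *Prep*+/- M0, with overlapping groups and a log2 fold change of 0.02 (SE 0.197, adjusted p = 0.935). In *Prep*-/- the *Ftl1* value was 0.15 (SE 0.197, adjusted p = 0.54), with overlapping groups. Without *Prep*-/- M0 replicate 3 it was 0.44 (adjusted p = 0.0248), under the fold criterion. Over all 18 libraries *Ftl1* spanned 1.84-fold from lowest to highest, the narrowest span of the 10 genes, and *Fth1* spanned 7.86-fold. Under total counts without TMM scaling, which move the median of all genes by -0.50 in *Prep*+/- M1 against M0, *Ftl1* fell by 0.445 on the log2 scale there.

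The balance of the chains turned over with it. The count of *Fth1* per count of *Ftl1* was 0.478 ± 0.0443 in *Prep*+/- M0, 2.93 ± 0.221 in *Prep*+/- M1 and 0.395 ± 0.0231 in *Prep*+/- M2 (SD, n = 3). In *Prep*-/- BMDMs the same ratio was 0.649 ± 0.174, 2.90 ± 0.072 and 0.590 ± 0.0948. Per kb of transcript, in *Prep*+/- M0, the level of *Ftl1* was 22617 CPM per kb and that of *Fth1* was 11194 CPM per kb, and in *Prep*+/- M1 they were 22967 and 69757 CPM per kb. *Fth1* is thus the higher of the pair per kb in M1 and the lower in M0. *Ftl1* has 11 near copies in the genome with at least 90% identity over at least 500 bases, of which *Ftl1-ps2* is in the count table, so its level depends on how reads that fit several copies were counted, which the sources used here do not give.

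Without a stimulus, and under IL-4 and IL-13, knockout libraries held more *Fth1* mRNA but short of a call. In M0 the *Prep*-/- libraries lay above every *Prep*+/- library, with a log2 fold change of 0.35 (SE 0.141, adjusted p = 0.0505). Without *Prep*-/- M0 replicate 3 the M0 value was 0.30 (adjusted p = 0.104). In M2 *Fth1* was at 15244, 12058 and 16379 CPM in *Prep*-/- against 10412, 9234 and 10430 CPM in *Prep*+/-. The groups did not overlap, and the log2 fold change was 0.54 (SE 0.141, adjusted p = 0.0107), which is 1.45-fold and so under the fold criterion. Without *Prep*-/- M2 replicate 2 it was 0.66 (adjusted p = 0.00588) and called. Without *Prep*-/- M2 replicate 3, which stood apart, it was 0.46 (adjusted p = 0.0333) and not called. In M1 the genotypes overlapped, at a log2 fold change of 0.10 (SE 0.141, adjusted p = 0.587). *Ftl1* overlapped between the genotypes in all 3 states, with log2 fold changes of -0.02, 0.11 and -0.04 and adjusted p from 0.685 to 0.957. *Prep*-/- M0 replicate 3 held 30470.1 CPM of *Ftl1* where replicates 1 and 2 held 18062 and 16520.5, and without it the M0 value was -0.35 (adjusted p = 0.0703).

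**Figure D4:**
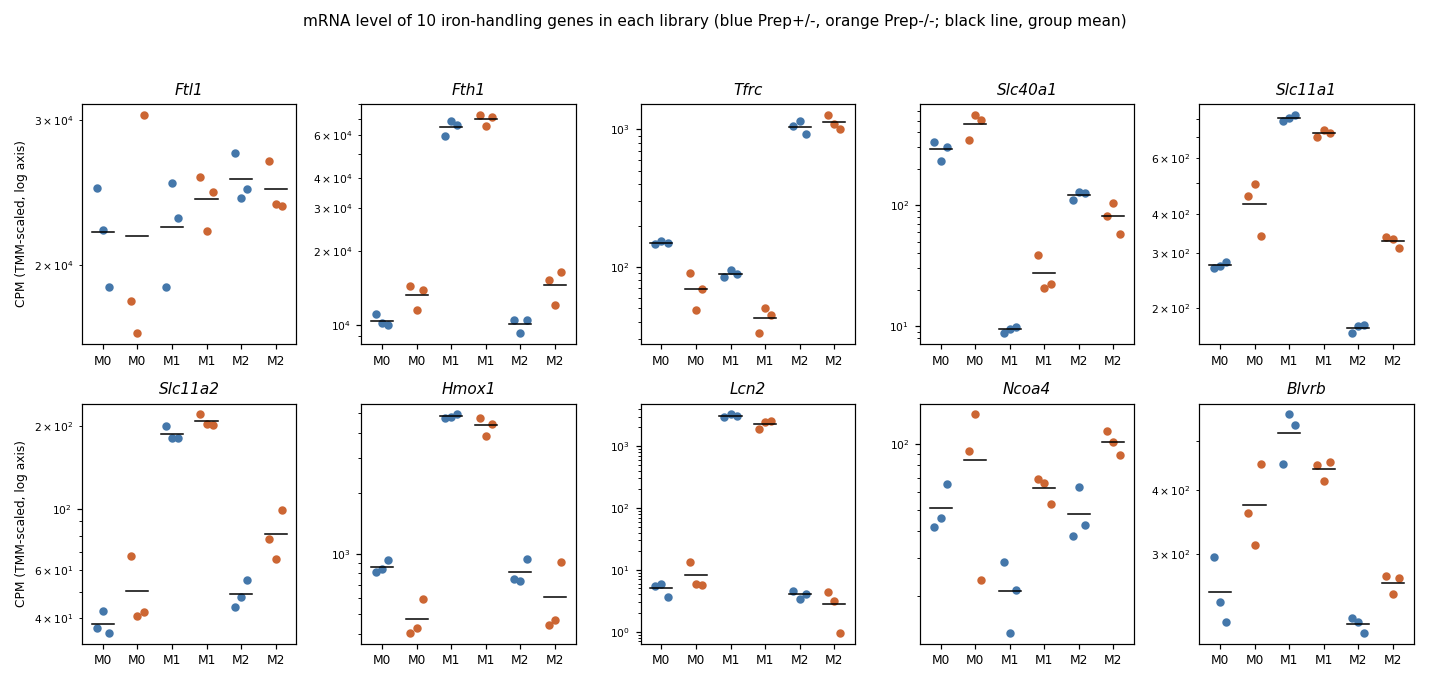
Level in CPM (TMM-scaled, log axis) of the 10 genes in each of the 18 libraries, by state, with *Prep*+/- in blue, *Prep*-/- in orange and the mean of each group as a line. *Fth1*, *Slc11a1*, *Slc11a2*, *Hmox1* and *Lcn2* are higher and *Slc40a1* is lower in the 6 M1 libraries than in all others, and *Tfrc* is higher in the 6 M2 libraries.

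The transferrin receptor rose under IL-4 and IL-13 and fell under LPS. *Tfrc* (chromosome 16, 32427556 to 32451612, plus strand) was at 147, 154 and 151 CPM in *Prep*+/- M0 and at 1051, 1148 and 928 CPM in *Prep*+/- M2. Knockout BMDMs went from 89.97, 48.4 and 68.9 CPM in M0 to 1278, 1102 and 1011 CPM in M2. The log2 fold change was 2.79 (SE 0.195, adjusted p = 2.86e-08) in *Prep*+/- and 4.03 (SE 0.207, adjusted p = 3.95e-10) in *Prep*-/-, or 6.92-fold and 16.4-fold. Under LPS it went to 84.5, 95.6 and 88.3 CPM in *Prep*+/- M1 and to 33.1, 50.8 and 44.8 CPM in *Prep*-/- M1. Those falls had log2 fold changes of -0.75 (adjusted p = 0.00262) and -0.69 (adjusted p = 0.0048), and the *Prep*-/- groups overlapped by 1 library of each state. The *Prep*-/- fall was under the fold criterion without *Prep*-/- M0 replicate 1 (-0.45) or without *Prep*-/- M1 replicate 1 (-0.57).

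Loss of *Prep* lowered *Tfrc* in M0 and M1, and in M2 the genotypes were not told apart. In M0 the log2 fold change was -1.13 (SE 0.186, adjusted p = 0.00014) and in M1 it was -1.06 (SE 0.187, adjusted p = 0.000647), a fall of 2.18-fold and 2.09-fold, with no overlap between the genotypes. In M2 the genotypes overlapped at 0.12 (SE 0.182, adjusted p = 0.684). The knockout effect in M2 exceeded that in M0 by 1.24 on the log2 scale (SE 0.26, adjusted p = 0.0084), beside 9.64% of all genes with such a difference at an adjusted p under 0.05 (5.16% higher and 4.48% lower). Between M1 and M0 the effect differed by 0.06 (SE 0.261, adjusted p = 0.877). Without *Prep*-/- M0 replicate 3 the M0 value was -1.14 (adjusted p = 0.000463), and without *Prep*-/- M2 replicate 3 the difference of the M2 and M0 effects was 1.33 (adjusted p = 0.00671). *Tfrc* is also abundant in red cell precursors. Summed erythroid markers, 9 of 11 listed genes being in the table, were at most 3.60 CPM in any library, at 0.671 to 1.28 CPM in *Prep*+/- M0 and 2.13 to 3.60 CPM in *Prep*-/- M0, with *Epor* holding most of the sum and globin mRNAs at 0 or near it.

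LPS raised the endosomal importer *Slc11a2*, also known as DMT1, in both genotypes. The gene (chromosome 15, 100285776 to 100322953, minus strand) was at 37.0, 42.5 and 35.5 CPM in *Prep*+/- M0 and at 199, 181 and 181 CPM in *Prep*+/- M1. The knockout libraries went from 67.7, 41.0 and 42.1 CPM to 220.0, 203 and 202 CPM. The M1 groups stood clear of the M0 groups, with log2 fold changes of 2.29 (adjusted p = 3.18e-08) and 2.05 (adjusted p = 9.38e-08). Loss of *Prep* raised it in M2, where the 3 *Prep*-/- libraries at 78.0, 65.7 and 99.0 CPM lay above the *Prep*+/- libraries at 43.9, 48.1 and 55.3 CPM (log2 fold change 0.72, SE 0.175, adjusted p = 0.00653). Without *Prep*-/- M2 replicate 3 that value was 0.56 (adjusted p = 0.0178), under the fold criterion, as it was under total counts (0.56, adjusted p = 0.0217). In M0 and M1 the knockout values were 0.39 (adjusted p = 0.0766) and 0.16 (adjusted p = 0.499). From M0 to M2 it rose in *Prep*-/- (0.69, adjusted p = 0.00444), with overlapping groups. That call was lost in 7 of 16 alternatives. These were leaving out either library that stood apart, both of them (0.41, adjusted p = 0.0693) or *Prep*-/- M0 replicate 2 (0.54), and total counts (0.585). The others were fits of only the libraries compared, without a replicate block (adjusted p = 0.0758) and with it (adjusted p = 0.0774). In *Prep*+/- the value was 0.36 (adjusted p = 0.183).

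*Slc11a1* (chromosome 1, 74414303 to 74425448, plus strand) codes for the phagosomal metal transporter NRAMP1 and followed LPS upward and IL-4 and IL-13 downward in the controls. In *Prep*+/- it was at 268, 273 and 282 CPM in M0, at 786, 807 and 827 CPM in M1 and at 167, 175 and 176 CPM in M2. Replicates differed little, and no group overlapped another in *Prep*+/- BMDMs. Knockout BMDMs were at 455, 498 and 339.9 CPM in M0, at 704, 737 and 725 CPM in M1 and at 337, 331 and 311 CPM in M2. The knockout level was therefore above the control level in M0 and M2 and below it in M1. The log2 fold change of the knockout in M0 was 0.65 (SE 0.112, adjusted p = 0.000195). That in M1 was -0.16 (SE 0.112, adjusted p = 0.272), and that in M2 was 0.92 (SE 0.113, adjusted p = 4.02e-05). The effect in M1 was lower than that in M0 by 0.81 on the log2 scale (SE 0.158, adjusted p = 0.00182), beside 24.6% of all genes with such a difference. Without *Prep*-/- M0 replicate 3 the M0 value was 0.79 (adjusted p = 4.04e-06), without *Prep*-/- M0 replicate 2 (0.54) or under total counts (0.51) it was under the fold criterion, and without *Prep*-/- M2 replicate 3 the M2 value was 0.97 (adjusted p = 2.29e-05). LPS raised it 2.94-fold in *Prep*+/- (adjusted p = 1.3e-08) and 1.68-fold in *Prep*-/- (adjusted p = 3.04e-05), the latter under the fold criterion without *Prep*-/- M0 replicate 3 (0.57) and under total counts (0.48).

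The exporter *Slc40a1* (chromosome 1, 45947211 to 45965683, minus strand) fell under both stimuli. In *Prep*+/- it was at 331, 234 and 304 CPM in M0, at 8.77, 9.56 and 9.88 CPM in M1 and at 111, 129.7 and 126 CPM in M2. In *Prep*-/- it was at 343, 559 and 505 CPM in M0, at 38.8, 20.8 and 22.3 CPM in M1 and at 81.7, 104 and 57.4 CPM in M2. The states did not overlap in either genotype. The LPS fall was 30.8-fold in *Prep*+/- (log2 fold change -4.94, SE 0.286, adjusted p = 1.11e-09) and 17.2-fold in *Prep*-/- (-4.10, SE 0.27, adjusted p = 4.37e-09). The fall under IL-4 and IL-13 was 2.37-fold (-1.25, adjusted p = 0.00139) and 5.79-fold (-2.53, adjusted p = 6.69e-07).

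Loss of *Prep* raised *Slc40a1* in M0 and M1, and its value in M2 was negative. In M1 the *Prep*-/- level was 2.91-fold that of *Prep*+/- (log2 fold change 1.54, SE 0.259, adjusted p = 0.000472), and this call held under every alternative tried, with values from 1.19 to 1.69. In M0 the value was 0.70 (SE 0.237, adjusted p = 0.023), and the call was lost without *Prep*-/- M0 replicate 3 (0.63, adjusted p = 0.0596), without *Prep*-/- M0 replicate 2 (0.56, adjusted p = 0.0947) or without *Prep*+/- M0 replicate 2 (0.54, adjusted p = 0.115). It was also lost with a replicate block on the 6 M0 libraries alone (0.68, adjusted p = 0.0986) and under total counts without scaling (0.56, adjusted p = 0.0688). In M2 the value was -0.59 (SE 0.239, adjusted p = 0.0821), with no overlap between the genotypes. Fitted on the 6 M2 libraries alone with a replicate block it was -0.63 (adjusted p = 0.0369) and called, as it was under total counts (-0.73, adjusted p = 0.035) and without *Prep*-/- M2 replicate 2 (-0.80, adjusted p = 0.0421), and without *Prep*-/- M2 replicate 3 it was -0.38 (adjusted p = 0.247). The effect in M2 was lower than that in M0 by 1.29 on the log2 scale (SE 0.337, adjusted p = 0.0249). That difference was no longer called without *Prep*-/- M2 replicate 3 (-1.08, adjusted p = 0.0533) or without both libraries that stood apart (-1.01, adjusted p = 0.0595).

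LPS raised *Hmox1*, the gene of heme oxygenase 1 (chromosome 8, 75820241 to 75827217, plus strand). It went from 809, 841 and 927 CPM in *Prep*+/- M0 to 4718, 4804 and 4923 CPM in M1, and from 404, 426 and 597 CPM to 4750.1, 3843 and 4436 CPM in *Prep*-/-. No M1 library came near an M0 library, and the rise was 5.61-fold in *Prep*+/- (adjusted p = 2.06e-07) and 9.13-fold in *Prep*-/- (adjusted p = 2.05e-08). Loss of *Prep* lowered *Hmox1* in M0, where every *Prep*-/- library was below every *Prep*+/- library (log2 fold change -0.85, SE 0.225, adjusted p = 0.00517). Without *Prep*-/- M0 replicate 3 the M0 value was -1.06 (adjusted p = 0.00164). In M1 the genotypes overlapped at -0.15 (adjusted p = 0.625), and the M1 effect of the knockout exceeded the M0 effect by 0.70 (SE 0.316, adjusted p = 0.114). That difference was called in 5 alternatives with adjusted p from 0.0305 to 0.0446, among them without *Prep*-/- M0 replicate 3 (0.90, adjusted p = 0.0433). In M2 they overlapped through *Prep*-/- M2 replicate 3 at 914 CPM, beside 441 and 468 CPM in the other *Prep*-/- replicates and 749, 733 and 943 CPM in *Prep*+/-. The M2 value was -0.41 (adjusted p = 0.196) with that library and -0.82 (adjusted p = 0.00181) without it.

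*Blvrb* (chromosome 7, 27147275 to 27165569, plus strand), whose product reduces biliverdin and flavins, rose under LPS in the controls. It was at 296, 242 and 221 CPM in *Prep*+/- M0 and at 450.0, 563 and 537 CPM in *Prep*+/- M1, a log2 fold change of 1.03 (SE 0.135, adjusted p = 7.41e-06) that was 0.57 and under the fold criterion under total counts without scaling. In *Prep*-/- it was already at 360.4, 312 and 450.0 CPM in M0 and reached 449, 417 and 455 CPM in M1, with 1 M0 library inside the M1 range and a log2 fold change of 0.23 (SE 0.134, adjusted p = 0.147). The difference of the knockout effect between M1 and M0 was -0.80 (SE 0.189, adjusted p = 0.00669), and -0.64 (adjusted p = 0.0127) without *Prep*-/- M0 replicate 3. The knockout value in M0 was 0.57 (SE 0.134, adjusted p = 0.00245), 1.48-fold and so just under the fold criterion, with no overlap between the genotypes. It was 0.40 (adjusted p = 0.0158) without *Prep*-/- M0 replicate 3 and over the criterion, at 0.69, without *Prep*-/- M0 replicate 2. In M2 the *Prep*-/- libraries at 272, 250.4 and 269.6 CPM lay above the *Prep*+/- libraries at 225, 221 and 210.3 CPM, at a log2 fold change of 0.27 (adjusted p = 0.157).

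*Lcn2* (chromosome 2, 32274645 to 32278264, minus strand) codes for lipocalin 2, which binds bacterial siderophores and so keeps iron from microbes. It was at 5.47, 5.96 and 3.61 CPM in *Prep*+/- M0 and at 2904, 3242 and 3104 CPM in *Prep*+/- M1, a rise of 615-fold (log2 fold change 9.26, SE 0.466, adjusted p = 2.53e-10). Knockout BMDMs rose from 13.3, 5.94 and 5.72 CPM to 1897, 2465 and 2539.5 CPM, or 277-fold (8.11, SE 0.443, adjusted p = 5.33e-10). The 3 *Prep*-/- M1 libraries all lay below the *Prep*+/- M1 libraries, but the difference of -0.42 (SE 0.322) was not called (adjusted p = 0.316). The knockout values in M0 and M2, 0.73 (adjusted p = 0.108) and -0.52 (adjusted p = 0.375), rest on levels of at most 13.3 CPM. From M0 to M2 it fell in *Prep*-/- at a log2 fold change of -1.56 (adjusted p = 0.00376), and -1.34 (adjusted p = 0.00296) without both libraries that stood apart. Fitted on only the libraries compared it was -1.56 with an adjusted p of 0.0754 and no longer called. Granulocyte precursors also make *Lcn2*. Their 13 summed markers were at 76.3 to 99.1 CPM in *Prep*+/- M0 and higher, at 233 to 296 CPM, in *Prep*+/- M1. In *Prep*-/- the sum was lower in M1, at 71.8 to 102 CPM, than in M0, at 134 to 196 CPM, while *Lcn2* rose. *Mmp8*, *S100a8* and *S100a9* made up most of that sum, and the granule genes *Elane* and *Mpo* stayed under 1 CPM in the mean of every group. Other granule genes were higher. *Ltf* and *Ngp* had means of 6.28 and 10.8 CPM in *Prep*+/- M0 and 18.3 and 28.2 CPM in *Prep*-/- M0. In M1 the means were 8.74 and 16.1 CPM in *Prep*+/- and 6.15 and 11.9 CPM in *Prep*-/-. The part of these markers in the *Lcn2* values was not tested.

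*Ncoa4* (chromosome 14, 31881822 to 31902234, plus strand) codes for the receptor that delivers ferritin to the lysosome, where its iron is freed. In M1 it was at 68.9, 66.0 and 53.1 CPM in *Prep*-/- and at 28.6, 13.5 and 21.3 CPM in *Prep*+/-, a log2 fold change of 1.57 (SE 0.432, adjusted p = 0.0107). Without *Prep*+/- M1 replicate 2, the lowest library, it was 1.32 (adjusted p = 0.0574) and no longer called. In M2 the *Prep*-/- libraries at 115, 102 and 89.2 CPM lay above the *Prep*+/- libraries at 37.5, 63.4 and 42.5 CPM, at 1.10 (SE 0.419, adjusted p = 0.0668), and fitted on those 6 libraries alone with a replicate block the value was 1.12 (adjusted p = 0.00826) and called, as it was without the block (1.10, adjusted p = 0.0118) and in DESeq2 (1.11, adjusted p = 0.0258). In M0 *Prep*-/- replicate 3 was at 23.6 CPM beside 93.0 and 137 CPM, against 41.7, 45.5 and 65.7 CPM in *Prep*+/-. The M0 value was 0.73 (adjusted p = 0.157) with that library and 1.17 (adjusted p = 0.00251) without it. LPS lowered *Ncoa4* in *Prep*+/- (-1.27, SE 0.429, adjusted p = 0.0204), which was lost without *Prep*+/- M0 replicate 3 (-1.03, adjusted p = 0.0826) or *Prep*+/- M1 replicate 2 (-1.06, adjusted p = 0.0788). In *Prep*-/- the LPS value was -0.43 (adjusted p = 0.387), and -0.91 (adjusted p = 0.0106) without *Prep*-/- M0 replicate 3. The gene overlaps *Timm23* on the other strand, and *Ncoa4-ps* matches its transcript at 99.9% over 1878 bases, so these counts are uncertain to the extent that strand and multiple matches were handled in counting, which the sources used here do not give.

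Around these 10 genes, 60 further genes of iron and heme metabolism were grouped in 6 lists, of which 51 had enough counts to be tested. Loss of *Prep* raised 6 and lowered 7 of the 51 in M0, raised 4 and lowered 7 in M1 and raised 3 and lowered 6 in M2, with medians of 0.02, -0.0027 and 0.05. These shares lay near or below the 32.6%, 22.5% and 16.2% of all genes called. LPS raised 12 and lowered 9 in *Prep*+/- and raised 13 and lowered 10 in *Prep*-/- BMDMs, near the 37.7% and 42% of all genes. IL-4 and IL-13 raised 3 and lowered 4 in *Prep*+/- and raised 6 and lowered 9 in *Prep*-/- BMDMs, near the 12.9% and 30.2% of all genes. Of the 6 genes of iron sensing (*Aco1*, *Ireb2*, *Fbxl5*, *Herc2*, *Pcbp1* and *Pcbp2*), 0 passed both criteria after *Prep* loss in each state in edgeR. In M0, M1 and M2, 3, 3 and 1 had an unadjusted p under 0.05. Of these, 2, 2 and 1 had an adjusted p under 0.05 as well, all of them under the fold criterion. A list of 6 genes is too short to read such counts against the shares of all genes. *Aco1*, which codes for an iron regulatory protein and was singled out after its values were seen, was at 0.41 in M2 (adjusted p = 0.00532), under the fold criterion. IL-4 and IL-13 raised it in both genotypes, at log2 fold changes of 0.66 (adjusted p = 0.000123) and 0.93 (adjusted p = 1.28e-06).

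Among iron transport and reduction genes, 9 of 17 were tested. In M0 loss of *Prep* raised *Cp* and *Hfe* and lowered *Slc39a14*, *Slc39a8* and *Steap3*, beside 32.6% of all genes called. In M1 0 of the 9 were called, and in M2 1 was higher and 1 lower, beside 22.5% and 16.2% of all genes. *Cp* codes for ceruloplasmin, a ferroxidase that works with ferroportin, and had 3, 9 and 4 counts in *Prep*+/- M0 against 391, 202 and 47 counts in *Prep*-/- M0. The ratio of the summed levels was 43.4 (95% interval 26.5 to 76.3, exact and for counting error only), and the fitted log2 fold change was 5.42 (SE 0.692, adjusted p = 1.47e-05). *Prep*-/- M0 replicate 3 was the lowest of the knockout libraries and still above every control. In M2 *Cp* had 27, 21 and 19 counts against 5, 0 and 4, a ratio of 8.54 (95% interval 4.24 to 19.5) and an adjusted p of 0.0368 that was lost without any one of 5 of the 6 libraries. LPS raised it in *Prep*+/- to 77.6, 56.8 and 61.4 CPM, a ratio of 296 (95% interval 182 to 519). In *Prep*-/- M1 it was at 144, 141 and 118 CPM, above every *Prep*+/- M1 library but not called. The zinc and iron importer *Slc39a14* also rose under LPS in *Prep*+/-, from 11.3, 19.6 and 25.0 CPM to 72.4, 62.0 and 67.1 CPM (log2 fold change 1.85, SE 0.291, adjusted p = 5.19e-05).

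Under IL-4 and IL-13 the mitochondrial iron importer *Slc25a37* and the metal importer *Slc39a8* fell and *Hfe*, whose product partners the transferrin receptor, rose in *Prep*+/- BMDMs. *Slc25a37* went from 35.6, 35.4 and 37.9 CPM to 16.7, 19.5 and 20.2 CPM (-0.95, SE 0.106, adjusted p = 6.3e-06). *Slc39a8* went from between 17.5 and 17.95 CPM to between 8.12 and 10.7 CPM (-0.97, SE 0.136, adjusted p = 7.1e-05). *Hfe* went from 83.3, 70.3 and 63.9 CPM to 145, 153 and 122 CPM (0.95, SE 0.185, adjusted p = 0.00153). The groups did not overlap for any of the 3.

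Of 8 regulators of heme and iron genes, loss of *Prep* raised 2 in M0, raised 2 and lowered 1 in M1 and raised 1 in M2, beside the 32.6%, 22.5% and 16.2% of all genes called. *Spic*, a transcription factor of iron-recycling macrophages, was at 11.003, 9.04 and 8.21 CPM in *Prep*-/- M0 against 3.05, 2.68 and 2.97 CPM in *Prep*+/- M0 (log2 fold change 1.70, SE 0.273, adjusted p = 0.000109). LPS brought it to 19.7, 19.7 and 24.5 CPM in *Prep*+/- (2.88, SE 0.277, adjusted p = 2.41e-07), and the genotypes overlapped in M1. *Bach1*, a repressor of *Hmox1* and ferritin genes, was at 86.6, 65.3 and 63.2 CPM in *Prep*-/- M1 against 36.9, 34.3 and 33.0 CPM in *Prep*+/- M1 (1.05, SE 0.182, adjusted p = 0.000582). *Bach1* rose in M0 as well, at 0.92 (adjusted p = 0.000529).

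In the assembly of iron-sulfur clusters, 12 genes were tested. Loss of *Prep* raised 1 and lowered 1 in M0, raised 1 and lowered 4 in M1 and raised 0 and lowered 3 in M2. Of all genes, 32.6%, 22.5% and 16.2% were called. In M1 the ferredoxin *Fdx2* was at 12.4, 20.2 and 17.2 CPM in *Prep*-/- against 27.2, 42.3 and 35.2 CPM in *Prep*+/- (-1.07, SE 0.257, adjusted p = 0.00484), and the co-chaperone *Hscb* was at 17.9, 14.8 and 15.0 CPM against 7.75, 8.26 and 9.63 CPM (0.89, SE 0.191, adjusted p = 0.0023). *Alad*, the second enzyme of heme synthesis, was lower in M2, at 9.004, 10.4 and 13.9 CPM in *Prep*-/- against 20.7, 18.9 and 19.3 CPM in *Prep*+/- (-0.82, SE 0.186, adjusted p = 0.00394). It was called lower in M0 and M1 too, at -0.94 and -0.82. Of the 8 heme synthesis genes, 1 rose and 2 fell in M0, and 1 rose and 1 fell in M1 and in M2, beside the same shares of all genes.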

How the data were processed

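Poly(A)-selected RNA of the 18 BMDM libraries was prepared with a stranded kit and sequenced in paired ends by the authors, who trimmed reads with Trimmomatic 0.36, aligned them to GRCm39 with HISAT2 2.2.1.0 and quantified genes with StringTie. The deposited table holds raw counts per gene symbol. The annotation release, strand setting and treatment of reads with several matches are not given in the sources used here.

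Counts were tested with edgeR 4.0.16 (R 4.3.3) after TMM scaling and filterByExpr, which kept 12021 of 16314 genes. One coefficient was fitted per group over all 18 libraries, and p-values were adjusted over all genes tested in each of 9 comparisons. Differences of the knockout effect between states were called at an adjusted p under 0.05 with no fold criterion. Standard errors are the log2 fold change divided by the square root of F. TMM factors were 0.818 to 1.20. On simulated counts for the knockout in M0 (11815 genes, 200 of them changed), 78% of 2-fold and 95% of 4-fold changes were recovered and 3.35% of calls were unchanged genes. Those counts were drawn from the fitted spread of each gene and held no library that stood apart. The changed genes were also a far smaller share than the 32.6% called in the data, so these rates may not carry over. The paper calls the replicates biological, and the labels only number them. Neither ties them to named animals, so p-values test a difference against the spread between these samples.

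The 10 genes, the pathway lists and the markers were chosen with earlier results of these data known. Named pathway genes are the 3 with the largest absolute log2 fold change among those called with a mean of at least 5 CPM, in each knockout comparison and in each stimulation of *Prep*+/- BMDMs; 1 gene that this rule names is not reported here. UTRs, gene positions and near copies (blastn 2.17.0, at least 90% identity over at least 500 bases) come from GENCODE vM39 on GRCm39. No replicate pair was alike within sampling noise.

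Groups share replicate numbers, and the sources do not say what a number marks. Deviations from group means of same-numbered libraries correlated above 0.1 in all 3 pairs for the knockout in M2 (0.249, 0.255 and 0.462) and for M1 against M0 in *Prep*-/- (0.201, 0.169 and 0.259), and not in the other comparisons. Alternatives were DESeq2 1.42.0, other scalings and filters, no fold criterion, fits of only the libraries compared, the replicate block and leaving out each library.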

Additional observations from a re-analysis of the deposited data

Results flagged for a closer look

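For 4 results the effect of *Prep* loss differed between states in a test of the difference itself (edgeR, adjusted over all genes tested). For *Slc11a1* the effect in M1 was below that in M0 by -0.81 on the log2 scale (adjusted p = 0.00182), and over the alternatives the difference lay between -0.957 and -0.617 with adjusted p up to 0.0228. For *Blvrb* the same difference was -0.80 (adjusted p = 0.00669), with alternatives between -0.948 and -0.584 and adjusted p up to 0.0275. For *Tfrc* the effect in M2 was above that in M0 by 1.24 (adjusted p = 0.0084). For *Slc40a1* it was below that in M0 by -1.29 (adjusted p = 0.0249), and this call was lost in 8 alternatives, the highest adjusted p being 0.0736 without *Prep*+/- M0 replicate 2. Such differences were called for 24.6% of all genes between M1 and M0 and for 9.64% between M2 and M0.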

How the results depend on the processing

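Over the comparisons of the 10 genes and all alternatives, 1400 values kept their direction and side of the thresholds, 33 lost a call, 22 gained one and 35 changed sign. For the other named genes 261 were unchanged in this sense and 9 lost a call, all in the knockout in M2. The causes of these changes were not tested.

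Without scaling factors the log2 fold changes of all genes had a median of -0.126 for the knockout in M0, -0.122 in M2, -0.495 for M1 against M0 in *Prep*+/- and -0.261 in *Prep*-/-, -0.109 and -0.124 for M2 against M0, and 0.244 for the difference of the knockout effect between M1 and M0. In that setting *Tfrc* was at -0.0333 in the knockout in M2, *Ftl1* at -0.445 and -0.0981 for M1 against M0 in *Prep*+/- and *Prep*-/-, and *Blvrb* at -0.0178 for M1 against M0 in *Prep*-/-. The number of the 10 genes called became 2 for the knockout in M0 and 4 for the difference between M1 and M0. With TMM computed without the ferritins, *Ftl1* was at -0.00949 for M1 against M0 in *Prep*+/-.

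With only the libraries compared in the fit, 2 of the 10 genes were called for M2 against M0 in *Prep*-/- and 4 for the difference between M1 and M0, and 11 pathway genes were called for M2 against M0 in *Prep*+/- and 4 for the difference between M2 and M0. With the replicate block added, 4 of the 10 genes were called for the knockout in M2, 12 pathway genes for M2 against M0 in *Prep*+/-, and 1 of the 10 genes and 4 pathway genes for the difference between M2 and M0. The block changed none of the calls of the 10 genes for M1 against M0 in *Prep*-/-. DESeq2 called 11 pathway genes for the difference between M2 and M0. Without a fold criterion the pathway genes called were 26, 21 and 16 for the knockout in M0, M1 and M2, 35 for M1 against M0 and 25 for M2 against M0 in *Prep*-/-.

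Leaving out 1 library at a time gave 2 to 4 of the 10 genes for the knockout in M2 and 1 to 2 for the difference between M2 and M0. It gave 6 to 11 pathway genes for the knockout in M1, 4 to 13 in M2 and 4 to 8 for the difference between M2 and M0. *Ftl1* ranged from -0.354 to 0.156, -0.0127 to 0.202 and -0.109 to 0.0221 for the knockout in M0, M1 and M2, from -0.112 to 0.103 and -0.0653 to 0.444 for M1 against M0 in *Prep*+/- and *Prep*-/-, from -0.00143 to 0.508 for M2 against M0 in *Prep*-/-, and from -0.0558 to 0.454 and -0.192 to 0.318 for the differences of M1 and of M2 from M0. For M2 against M0 in *Prep*+/-, *Fth1* ranged from -0.107 to 0.0038 and *Ncoa4* from -0.35 to 0.131. For M2 against M0 in *Prep*-/-, *Hmox1* ranged from -0.0838 to 0.535 and *Ncoa4* from -0.182 to 0.804. *Ncoa4* ranged from -0.912 to 0.0747 for M1 against M0 in *Prep*-/- and from -0.0668 to 0.919 for the difference between M2 and M0. For the difference between M1 and M0, *Slc11a2* ranged from -0.367 to 0.0394 and *Tfrc* from -0.147 to 0.299.

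Leaving out both libraries that stood apart was chosen after the data were seen. It gave 3 of the 10 genes for M2 against M0 in *Prep*-/- and 1 for the difference between M2 and M0, with *Ncoa4* at -0.0858 in the former and *Ftl1* at 0.358 in the latter. With 3 libraries a group, 2-fold changes were recovered less fully than 4-fold ones in simulation, and low genes such as *Cp* rest on few counts.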

Other observations

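For each of the 10 genes, the most alike genes in log2 CPM over the 18 libraries were found among 9591 tested genes. These values describe likeness only, since the libraries fall into the same 6 groups for every gene. *Fth1* was most like *Gch1* (Pearson's r = 0.991), the first enzyme of tetrahydrobiopterin synthesis, and *Scamp1* (r = 0.99). *Lcn2* was most like *Ccl5* and *Cfb* (r = 0.993 each), a chemokine and a complement factor. *Tfrc* was most like *Ear2* (r = 0.987), a ribonuclease gene, and *Colgalt1* (r = 0.977), a collagen-modifying enzyme. *Slc40a1* was most like *Numa1* (r = 0.984) and *Gas6* (r = 0.974), a ligand of the receptor encoded by *Mertk*. *Slc11a1* was most like *Cybb* (r = 0.985), the catalytic subunit of the phagocyte oxidase, and the copper importer *Slc31a1* (r = 0.983). *Slc11a2* was most like *Rrbp1* (r = 0.978) and *Tank* (r = 0.976), *Hmox1* like *Tspan3* (r = 0.985) and *P4ha1* (r = 0.983), *Ncoa4* like *Vps13b* (r = 0.977) and *Mapre2* (r = 0.967), and *Blvrb* like *Tmem134* (r = 0.984) and *Ggh* (r = 0.969). *Ftl1*, which varied least, had the lowest of these values, with *Arl2* at 0.916 and *Alkbh7* at 0.895.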
